A study of Mus musculus with 2 samples.

Results

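The genes described here are 9 chemokine genes and receptors that draw monocytes and neutrophils into tissue: Ccl2, Ccl7, Ccl12 and their receptor Ccr2, then Ccl6 and Ccl9, then Cxcl1, Cxcl2 and their receptor Cxcr2. They were chosen by gene symbol among the 32285 genes of the count matrices, and all 9 were found in both libraries. The data are single-cell RNA libraries (10x Genomics 5′ chemistry) from the optic nerves of Nf1-OPG mice, a model of the low-grade optic glioma of neurofibromatosis type 1. All mice in both libraries had the genotype Nf1flox/neo; GFAP-Cre: the neo allele is disrupted in every cell, and Cre under the GFAP promoter removes the flox allele in neuroglial progenitors and their descendants. Immune cells outside that lineage therefore carry the neo allele beside an unrecombined flox allele. In the first library the mice had received an antibody to PD-1 (labelled anti-PDCD1), and in the second an antibody to TIGIT; each library pooled tissue from 10 animals aged 12 weeks, and the labels give no dose or schedule. An untreated library was not analysed here, and the protocol also speaks of meningeal dura, so the tissue border around the nerve may be part of the suspensions.

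Chemokines are small secreted proteins that bind receptors on leukocytes and steer their movement. Ccl2, Ccl7 and Ccl12 bind Ccr2, which inflammatory monocytes carry and use to leave the bone marrow and enter inflamed tissue. Cxcl1 and Cxcl2 bind Cxcr2, the main receptor by which neutrophils are recruited, while Ccl6 and Ccl9 are rodent chemokines of the CC family that act through Ccr1.

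The genes lie in 3 tight blocks and at 2 receptor loci of the mouse genome (positions from RefSeq, assembly GRCm38.p6). Ccl2 (chr11:82035577-82037452), Ccl7 (chr11:82045712-82047525) and Ccl12 (chr11:82101845-82103399) span 67823 bases with Ccl11 between them. Ccl9 (chr11:83572917-83578636) and Ccl6 (chr11:83587886-83593087) are next to each other within 20171 bases, and Cxcl1 (chr5:90891245-90893121) and Cxcl2 (chr5:90903899-90905938) within 14694 bases, with no other protein-coding gene between the members of either pair. Ccr2 lies at chr9:124101918-124109140 and Cxcr2 at chr1:74153994-74161246. Promoter entries of 300 bases (250 before the start and 50 after) were found for 7 of the 9 genes, and Ccl2 and Ccl7 had none.

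The 120 bases before the start of 3 ligand genes are shown. The adjacent Cxcl1 and Cxcl2 hold the same rare run of letters, and Ccl12 has no exact match to it. For Cxcl1 (chr5:90891125-90891244, plus strand) and Cxcl2 (chr5:90903779-90903898, plus strand), capitals mark the letters GGAATTTCC, a form of the site bound by the transcription factor NF-kappaB. For Ccl12 (chr11:82101725-82101844, plus strand), capitals mark TATAAA, the letters of a TATA box. Only exact letters are marked. Cxcl1 and Cxcl2 also hold cataaa, and Ccl12 holds ggaacttcc, near matches that no pattern searched here takes in.
Cxcl1: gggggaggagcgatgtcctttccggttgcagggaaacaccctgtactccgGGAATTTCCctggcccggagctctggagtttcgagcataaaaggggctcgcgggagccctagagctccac
Cxcl2: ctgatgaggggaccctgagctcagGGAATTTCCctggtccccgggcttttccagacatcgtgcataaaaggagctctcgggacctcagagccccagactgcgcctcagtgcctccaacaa
Ccl12: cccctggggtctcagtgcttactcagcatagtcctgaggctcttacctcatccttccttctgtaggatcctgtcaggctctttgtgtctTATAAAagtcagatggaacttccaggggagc

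The letters GGAATTTCC began 70 bases before the start of Cxcl1 and 96 bases before that of Cxcl2. Searched on both strands, they occur in 104 of 32851 promoter windows of the same length (0.317%). The looser pattern GGNNTTTCC, of which the former is a case, occurs in 1913 windows (5.82%), among them those of Ccl9, Cxcl1 and Cxcl2. TATAAA was found 31 bases before the start of Ccl12 and also in the window of Ccl9, against 4473 of all windows (13.6%). The letters TGANTCA, a site of AP-1 factors, were found for Ccl9 (2565 windows in all, 7.81%). GAGGAA, the core of sites bound by the myeloid factor PU.1, was found for Ccl12, Cxcl2 and Cxcr2 (9289 windows, 28.3%). The pattern TTCNNNGAA, the form of STAT sites, was in none of the 7 windows and in 2726 of all (8.30%). These are matches of letters, and binding was not measured.

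After filtering, 13275 anti-PD-1 and 7495 anti-TIGIT cells were kept, with median depths of 4453 and 4126 unique molecular identifiers (UMIs, each standing for 1 captured RNA molecule). Cells were put into classes by marker genes, none of which is among the 9 genes, and every class name here stands for cells that look like that type by their markers. Microglia (led by Tmem119 and P2ry12) made up 10.7% and 5.60% of kept cells, and border macrophages (led by Pf4, Lyve1 and Mrc1), which line vessels and meninges, 1.82% and 9.37%. A further myeloid group, 537 and 437 cells with C1qa that no gate took, led by Ccl8, Ms4a7 and Saa3, was defined after the data had been seen and is called other C1qa-positive cells. The libraries shared 163 barcodes, of which 97 were placed in a class in both and 13 in the same class in both. With 1 library per treatment there is no replicate of either. The intervals given are 95% and cover counting error only, and no difference between the libraries was tested.

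Levels are given as CPM, the count of a gene scaled so that all genes of the class sum to 1000000. Taken over all kept cells, the libraries differed in the amount of message of each gene. Ccl12 was the only ligand with the higher total under anti-PD-1, 406 CPM against 258 CPM under anti-TIGIT, with a UMI in 17.3% and 11.9% of cells. Ccl2 had 160 and 246 CPM (11.9% and 13.4% of cells), Ccl7 51.8 and 123 CPM (4.1% and 5.36%), Ccl6 47.8 and 73.8 CPM (12.2% and 14.1%) and Ccl9 15.4 and 47.4 CPM (5.36% and 10.8%). Cxcl2 had 32.8 and 210 CPM (1.68% and 6.82% of cells) and Cxcl1 3.51 and 12.0 CPM (0.693% and 1.61%). The receptors had 36.2 and 74.2 CPM for Ccr2 and 0.0883 and 1.55 CPM for Cxcr2. Such totals mix the level within a cell class with the share of that class, and the 2 are given apart in what follows.

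Ccl2, the main monocyte attractant, was found in border macrophages and mast cells above all other classes. In border macrophages it stood at 2510 CPM (interval 2418 to 2605) under anti-PD-1 and at 2259 CPM (2203 to 2317) under anti-TIGIT. In mast cells and basophils, few in number, it stood at 2316 (1724 to 3045, 51 UMIs in 7 of 9 cells) and 2736 (2287 to 3247, 131 UMIs in 22 of 29 cells). The intervals of the 2 classes overlap in both libraries, so their order is not set.

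Microglia came next, with Ccl2 at 640 and 594 CPM, and the other C1qa-positive cells at 595 and 835 CPM. The first of these pairs is near equal in the 2 libraries and the second is lower under anti-PD-1. As a log2 ratio, with anti-PD-1 divided by anti-TIGIT, the difference was 0.15 in border macrophages (0.09 to 0.22), 0.11 in microglia (0.01 to 0.21) and -0.49 in the other C1qa-positive cells (-0.60 to -0.38). In microglia the sign turned in Leiden clusters (-0.05) and in cells thinned to 1000 UMIs (-0.09). Monocytes had 499 and 202 CPM (log2 ratio 1.30, 0.88 to 1.74), and cDC2, the dendritic cells that prime CD4 T cells, 114 and 191 CPM (-0.75, -0.96 to -0.53). The monocyte ratio rested on 63 and 57 cells, of which 1 held 66 of the 171 anti-PD-1 UMIs, and ran from 0.95 (without the 1% of cells with most Ccl2) to 4.19 (Xist-positive cells) over the alternatives.

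The class that held most Ccl2 was not the same in the libraries, although the levels within border macrophages and microglia were close. Of the 12652 Ccl2 UMIs under anti-PD-1, microglia held 47.5%, border macrophages 22.1% and the other C1qa-positive cells 10.7%. Of the 9545 under anti-TIGIT, border macrophages held 63.8%, the other C1qa-positive cells 13.2% and microglia 10.1%. Border macrophages were 1.82% and 9.37% of the kept cells and microglia 10.7% and 5.60%. Which of the treatment, the dissection and the pooled animals goes with that difference in makeup cannot be told apart.

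Cells with a Ccl2 UMI were 64.9% and 58.8% of border macrophages and 46.2% and 31.4% of microglia. Oligodendrocytes, which should lack these chemokines, served as the reference for free RNA: 2.98% and 1.71% of them had a UMI, at median depths of 6112 and 6115 UMIs against 4002 and 3396 in border macrophages. After thinning each cell to 1000 UMIs the shares were 52.5% and 45.5% in border macrophages, 23.9% and 16.1% in microglia, and 1.62% and 0.512% in oligodendrocytes. Both macrophage classes were thus above the reference at equal depth.

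Ccl7, a second Ccr2 ligand that lies next to Ccl2, was more narrowly placed. Border macrophages had 1271 CPM (1205 to 1339) and 1313 CPM (1271 to 1357), with a log2 ratio of -0.05 (-0.14 to 0.04) whose interval holds 0. The other C1qa-positive cells had 281 and 331 CPM and microglia 118 and 74.6 CPM. Microglial Ccl7 had a log2 ratio of 0.66 (0.39 to 0.94), which turned to -0.18 in Leiden clusters. Mast cells and basophils had 55 UMIs in 4 of 9 cells (2497 CPM) and 184 in 11 of 29 cells (3843 CPM). In each library 1 cell held most of them, 30 of the 55 and 107 of the 184. Border macrophages held 34.5% and 74.1% of all Ccl7 UMIs. In oligodendrocytes thinned to 1000 UMIs, 0.553% and 0.102% of cells had a Ccl7 UMI, against 28.3% and 25.1% of border macrophages.

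Ccl12, the third ligand of Ccr2 and specific to rodents, was a gene of microglia and border macrophages. Border macrophages had 2228 CPM (2141 to 2317) under anti-PD-1 and 2305 CPM (2248 to 2363) under anti-TIGIT (log2 ratio -0.05, -0.12 to 0.02). Microglia had 2166 CPM (2136 to 2196) and 1119 CPM (1068 to 1172), and the other C1qa-positive cells 1707 and 879 CPM. So the 2 macrophage classes were level with each other under anti-PD-1, while under anti-TIGIT microglia and the other C1qa-positive cells lay far under border macrophages. The log2 ratios were 0.95 in microglia (0.88 to 1.02) and 0.96 in the other C1qa-positive cells (0.87 to 1.05).

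Mast cells, which matched border macrophages in Ccl2, had 0 and 3 UMIs of Ccl12. Per 100 Ccl2 UMIs of the same class, microglia held 339 and 188 UMIs of Ccl12, border macrophages 88.7 and 102, and mast cells 0 and 2.29. For Ccl7 the order was the other way round, with 108 and 140 in mast cells, 50.6 and 58.1 in border macrophages and 18.4 and 12.6 in microglia. Among these 3 classes the mix of the 3 Ccr2 ligands therefore stood in the same order in both libraries. Other classes did not all keep their place. Monocytes held 73.1 and 117 UMIs of Ccl12 per 100 of Ccl2, under border macrophages in the first library and above them in the second. The place of mast cells for Ccl7 rests largely on 1 cell in each library. That cell held 30 of their 55 Ccl7 UMIs under anti-PD-1 and 107 of 184 under anti-TIGIT.

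The microglia of the 2 libraries differed in MHC class II, the antigen-presenting genes H2-Aa, H2-Ab1, H2-Eb1 and Cd74, and this difference went along with Ccl12. With a line drawn after seeing the data at 50 class II UMIs per 10000, 1199 of 1414 anti-PD-1 microglia (84.8%) and 148 of 420 anti-TIGIT microglia (35.2%) were class II high, and 36 and 32 cells lay near the line (25 to 100). Ccl12 stood at 2293 and 1825 CPM in class II high microglia and at 1011 and 641 CPM in class II low ones. Within the split the log2 ratios were 0.33 (0.24 to 0.41) and 0.66 (0.51 to 0.81), both under the 0.95 of microglia taken whole. Ccl2 in class II high microglia was 676 and 1083 CPM (-0.68), the lower level now being that of anti-PD-1. Of the 709 anti-TIGIT UMIs behind it, 1 cell held 146. In class II low microglia Ccl2 was 304 and 263 CPM (0.21, -0.04 to 0.46), with an interval that holds 0.

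Ccl12 was also counted outside microglia and macrophages. Plasma cells had 108 and 1.22 CPM, CD4 T cells 51.5 and 4.99 CPM and CD8 T cells 41.6 and 4.75 CPM, whereas ILC2 had 35.1 and 130 CPM. The ILC2 values were 12 and 19 UMIs, and only 4 of 83 and 3 of 52 ILC2 had a UMI of any Ccr2 ligand. Oligodendrocytes had a Ccl12 UMI in 6.65% and 1.42% of cells, and after thinning in 3.55% and 0.563%, which is the level free RNA may give in any class. Ccl12 in cDC2 was 96.5 and 14.4 CPM (log2 ratio 2.74, 2.26 to 3.26) and in cDC1, the cross-presenting dendritic cells, 69.0 and 17.3 CPM (1.99). Under anti-PD-1, 2 cells held 50% of the 223 UMIs of cDC2 and 2 cells 50% of the 213 UMIs of cDC1. The ratio of oligodendrocytes, the reference for free RNA, was 2.09. In Leiden clusters the cDC2 ratio was 0.24 in place of 2.74. The Ccl12 of NK cells under anti-PD-1 (113 UMIs) lay almost whole in 1 cell with 101 UMIs.

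**Figure D1:**
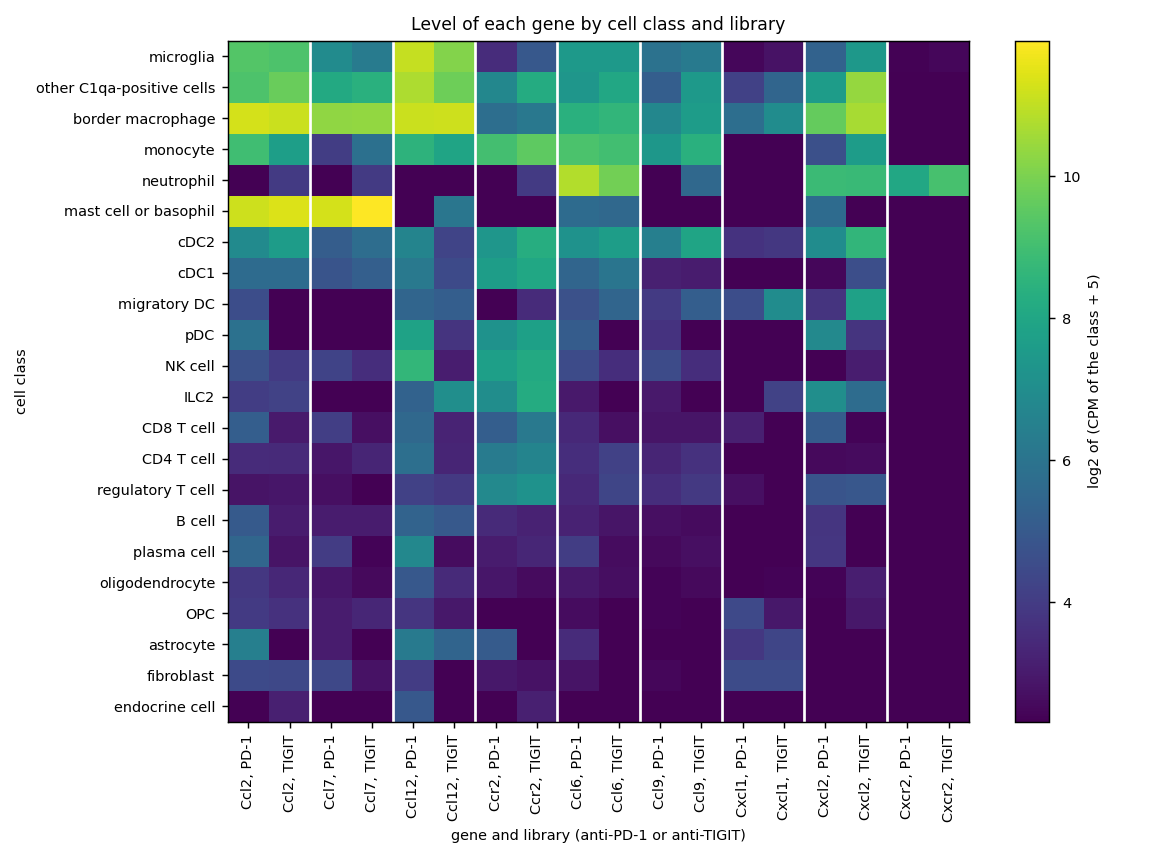
Level of each of the 9 genes (columns, anti-PD-1 and anti-TIGIT side by side) in 22 cell classes (rows) as the log2 of CPM plus 5. Gamma-delta T cells, endothelial cells and erythroid cells, with at most 13 cells in each library, are left out. Some classes shown are also small under anti-PD-1, with 5 neutrophils, 9 mast cells or basophils and 13 endocrine cells. Ccl2, Ccl7 and Ccl12 are bright in border macrophages, Ccl2 and Ccl7 also in mast cells, where Ccl7 is highest, and Cxcr2 stands out in neutrophils.

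Ccr2, the receptor of these ligands, marked a different set of cells. Among classes with 20 or more cells in each library, monocytes had the highest level in both, 517 CPM (443 to 599) and 731 CPM (640 to 830), and a UMI in 63.5% and 84.2% of cells. Under anti-PD-1 NK cells (208 CPM), cDC1 (200 CPM) and cDC2 (160 CPM) followed, with overlapping intervals between NK cells and each of the others. Under anti-TIGIT cDC2 (313 CPM), the other C1qa-positive cells (294 CPM), ILC2, tissue-resident type 2 lymphoid cells (294 CPM), NK cells (275 CPM) and cDC1 (254 CPM) lay close together.

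The anti-PD-1 level of Ccr2 was below that of anti-TIGIT in the following classes. The log2 ratio was -0.50 in monocytes (-0.79 to -0.21), -0.97 in cDC2 (-1.15 to -0.79) and -1.49 in the other C1qa-positive cells (-1.73 to -1.26), where the levels were 105 and 294 CPM. CD8 T cells had 31.4 and 68.1 CPM (-1.12, -1.40 to -0.83) and ILC2 126 and 294 CPM (-1.22, -1.87 to -0.58). Smaller ratios were those of CD4 T cells (74.3 and 95.9 CPM), regulatory T cells (109 and 144 CPM), whose intervals hold 0, and cDC1 (-0.35). In Xist-positive monocytes the ratio turned to 0.19. In Leiden clusters the cDC2 ratio was -0.22 and that of the other C1qa-positive cells -0.84.

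At 1000 UMIs per cell, a Ccr2 UMI was found in 39.3% and 43.9% of monocytes, 16.1% and 27.7% of cDC1, 14.0% and 23.5% of cDC2, 10.4% and 22.3% of the other C1qa-positive cells, 15% and 37.3% of ILC2 and 3.15% and 6.01% of CD8 T cells. In oligodendrocytes it was 0.237% and 0.051%. Counted as a share of all Ccr2 UMIs, cDC1 held most under anti-PD-1 (21.5%), before cDC2 (12.9%) and regulatory T cells (9.31%). Under anti-TIGIT cDC2 held 30.9%, the other C1qa-positive cells 15.4% and monocytes 8.15%. Most Ccr2 message in these nerves was thus in cells other than monocytes, which held 6.17% and 8.15% of it.

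Monocytes, the class with the highest Ccr2, and the other C1qa-positive cells had UMIs of both the receptor and its ligands. Border macrophages held 13.7% and 65.1% of the summed UMIs of Ccl2, Ccl7 and Ccl12. Microglia held 56.1% and 11.9%, and the other C1qa-positive cells 12.1% and 12.7%. Monocytes, only 0.475% and 0.761% of kept cells, held 0.613% and 0.649%. Within monocytes the summed ligands stood at 876 and 491 CPM, with a UMI in 44.4% and 35.1% of cells. A UMI of at least 1 of the 3 ligands was found in 78.9% and 75.9% of border macrophages and in 8.99% and 3.43% of oligodendrocytes. Ccr2 in border macrophages was 50.3 and 67.1 CPM. In border macrophages thinned to 1000 UMIs, Ccl2 was found in 18.2% and 31.2% of cells with a Ccr2 UMI (2 of 11 and 15 of 48) and in 54.3% and 46.6% of cells without. In the other C1qa-positive cells the shares were alike, 24.5% with and 24.5% without Ccr2 under anti-PD-1 and 30% and 29.7% under anti-TIGIT. Monocytes numbered 4.75 and 7.61 per 1000 kept cells.

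**Figure D2:**
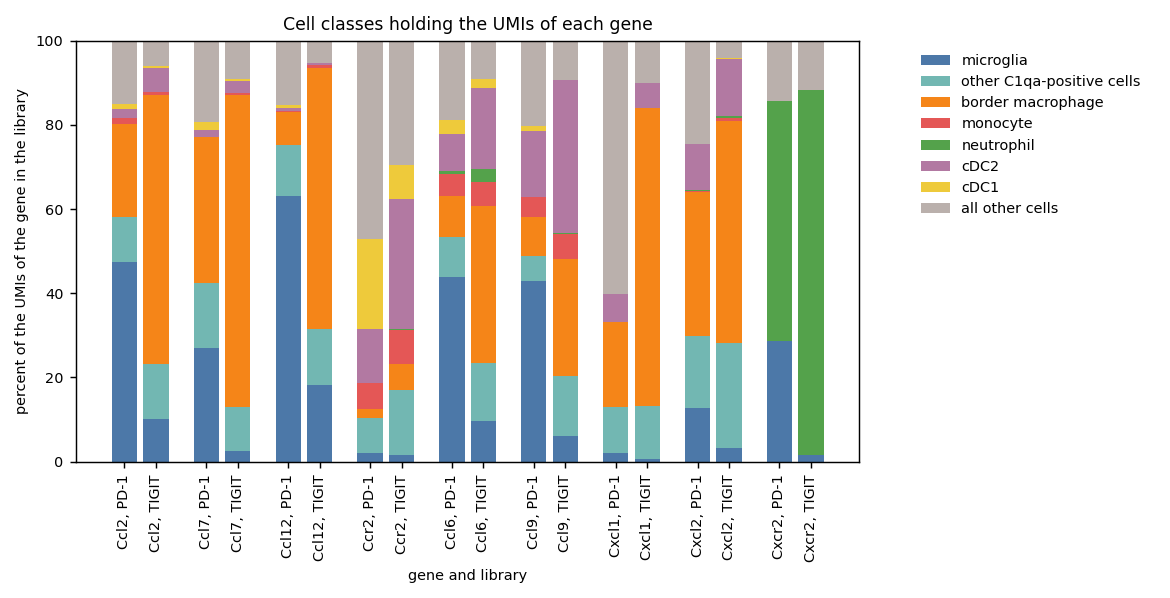
Share of each gene's UMIs in a library (vertical axis, percent) held by 7 myeloid classes and by all other cells, 1 bar per gene and library. For Ccl2 and Ccl12 the microglial part is large under anti-PD-1 and the border macrophage part under anti-TIGIT, whereas Ccr2 is spread over dendritic cells, lymphocytes and monocytes.

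Ccl6 and Ccl9, neighbours on chromosome 11, were found together in monocytes, macrophages and cDC2. Ccl6 was highest in neutrophils, at 1763 CPM (27 UMIs, 5 cells) and 935 CPM (89 UMIs, 41 cells), and next in monocytes, at 581 and 507 CPM (log2 ratio 0.20, -0.11 to 0.50). Border macrophages had 332 and 394 CPM, microglia 177 and 171 CPM (0.05, -0.13 to 0.24), the other C1qa-positive cells 158 and 263 CPM and cDC2 144 and 196 CPM. The monocyte and microglial intervals hold 0. The border macrophage ratio was -0.25 (-0.42 to -0.08), that of the other C1qa-positive cells -0.74 and that of cDC2 -0.44, and in Leiden clusters the last was 0.06. In border macrophages with Y-linked transcripts the ratio turned to 0.81.

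Ccl9 was led by monocytes, and in the 5 classes given here its level was lower under anti-PD-1. Neutrophils had 0 and 4 UMIs of it. Monocytes had 163 and 339 CPM (log2 ratio -1.05, -1.54 to -0.57), cDC2 83.5 and 235 CPM (-1.50, -1.73 to -1.26) and border macrophages 103 and 190 CPM (-0.88, -1.18 to -0.58). The other C1qa-positive cells had 31.5 and 172 CPM (-2.45, -2.85 to -2.07), and microglia 55.6 and 70.3 CPM (-0.34, -0.63 to -0.03). All 5 intervals lie below 0. In Leiden clusters the ratio was -0.77 in cDC2 and -1.63 in the other C1qa-positive cells.

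Microglia held most of both genes under anti-PD-1, 43.9% of Ccl6 and 42.9% of Ccl9. Under anti-TIGIT border macrophages led for Ccl6 (37.1%) and cDC2 for Ccl9 (36.3%). At 1000 UMIs per cell Ccl9 was found in 9.44% and 19.1% of cDC2 and 5.48% and 13.6% of border macrophages, against 0.0790% and 0.102% of oligodendrocytes. Ccl6 was found in 19.6% and 20.7% of border macrophages and 15.1% and 13.2% of microglia, against 0.513% and 0.153% of oligodendrocytes. For Ccl9 in cDC2 and border macrophages the gap between the libraries was thus present in shares of cells as well as in summed counts. In microglia the shares with Ccl9 were near equal, 4.95% and 5.19%.

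Cxcl2, the more frequent of the 2 Cxcr2 ligands, was led by border macrophages at 802 CPM (751 to 857) under anti-PD-1 and 1598 CPM (1550 to 1646) under anti-TIGIT. The log2 ratio was -0.99 (-1.10 to -0.89). The other C1qa-positive cells had 193 and 1337 CPM (-2.79, -2.94 to -2.64), cDC2 122 and 389 CPM (-1.68, -1.87 to -1.49), monocytes 20.4 and 190 CPM (-3.21) and microglia 35.5 and 168 CPM (-2.24, -2.48 to -2.00). All 5 intervals lie below 0. Xist-positive monocytes, 14 and 7 cells, had 7 and 0 Cxcl2 UMIs, too few for a ratio. The ratio of the other C1qa-positive cells ran from -4.61 to -1.59 over 11 alternatives. In neutrophils, which carry the receptor, 7 and 42 UMIs gave 457 and 441 CPM.

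The microglial value of Cxcl2 rests on very few cells. Under anti-TIGIT 1 microglial cell held 136 of the 272 UMIs, and only 15 and 19 microglia (1.06% and 4.52%) had a UMI. At 1000 UMIs per cell the shares were 0.825% and 3.12%, against 0.158% and 0.102% of oligodendrocytes. Among microglia with Y-linked transcripts the ratio turned to 3.0. In the other classes the shares at 1000 UMIs were 21.9% and 27.2% in border macrophages, 4.89% and 23.6% in the other C1qa-positive cells and 4.90% and 11.0% in cDC2. In border macrophages the libraries are closer in the share of cells than in the summed count.

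Cxcl1 was rare. Border macrophages had 56 and 330 UMIs, or 50.3 CPM (38.0 to 65.3) and 122 CPM (109 to 136), in 9.09% and 11.3% of cells. The log2 ratio was -1.28 (-1.72 to -0.87), and after thinning to 1000 UMIs it was -0.48 with an interval from -1.28 to 0.26. In border macrophages with Y-linked transcripts it was -2.47. The other C1qa-positive cells had 13.1 and 39.0 CPM (-1.57).

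Outside the macrophages Cxcl1 was found in a few cells each of several classes. CD8 T cells had 32 UMIs in 4 of 1704 cells under anti-PD-1 and 0 under anti-TIGIT, and cDC2 19 and 27 UMIs in 4 and 7 cells. Migratory dendritic cells had 11 and 19 UMIs (19.1 and 121 CPM), fibroblasts 26 and 9 UMIs (18 CPM in both libraries). Precursor cells had 52 UMIs in 23 of 529 cells under anti-PD-1 and 1 UMI among 91 cells under anti-TIGIT (log2 ratio 2.69, 0.15 to 8.02). Mature oligodendrocytes had 0 and 5 UMIs. Cxcl1 in the precursor cells is therefore not at the level of the mature cells under anti-PD-1, while its level under anti-TIGIT was not detectable beyond 1 UMI at this depth.

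Cxcr2 was the rarest of the 9 genes and lay mostly in neutrophils. The anti-PD-1 library held 7 Cxcr2 UMIs in all, 4 of them in 1 of 5 neutrophils (261 CPM) and 2 in microglia, and the anti-TIGIT library 60, of which 52 lay in 26 of 41 neutrophils (547 CPM, 408 to 717). Neutrophils thus held 57.1% and 86.7% of its UMIs. The class was 0.377 and 5.47 per 1000 kept cells, and its defining genes S100a8, S100a9 and Retnlg led it. With 5 neutrophils under anti-PD-1 the level cannot be compared between the libraries.

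The summed Cxcr2 ligands lay in border macrophages (33.0% and 53.7%), the other C1qa-positive cells (16.4% and 24.1%) and cDC2 (10.4% and 13.1%). Cxcl2 in these 3 classes and the number of neutrophils were both higher in the anti-TIGIT library. Whether these go together was not tested, since each library gives 1 point.

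**Figure D3:**
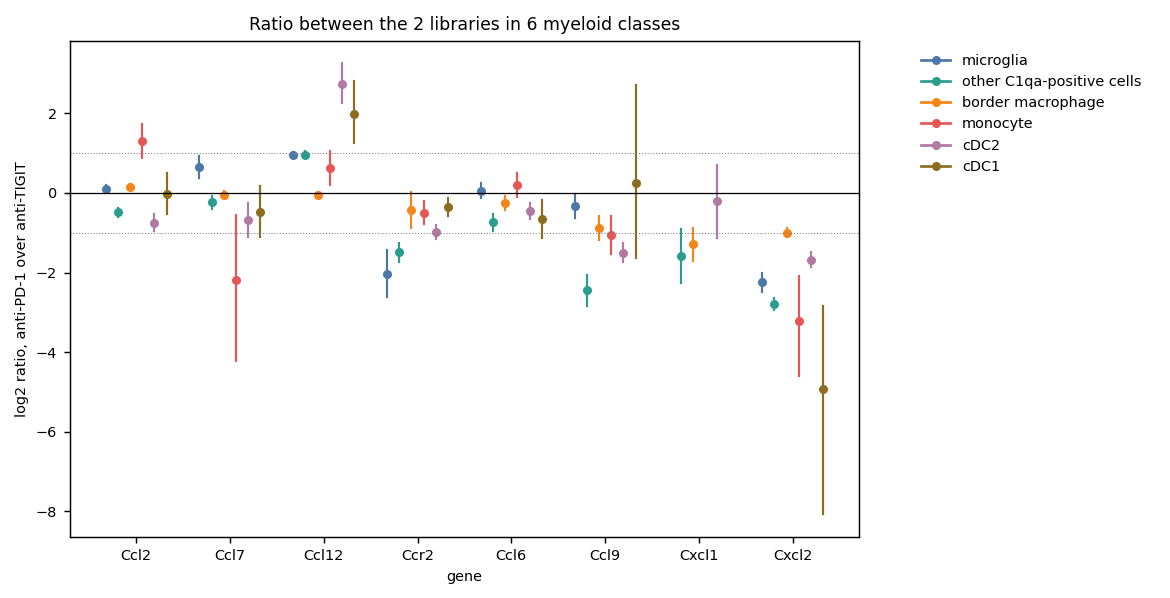
Log2 of the anti-PD-1 level divided by the anti-TIGIT level (vertical axis) for 8 genes in 6 myeloid classes, as points with 95% counting intervals; dotted lines mark a 2-fold difference. Points for Cxcl2 and Ccl9 lie below 0 in microglia, the other C1qa-positive cells, border macrophages, monocytes and cDC2, while the Ccl12 points of microglia and cDC2 lie above 0.

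How many of the genes were past 2-fold was counted on the log2 ratio of CPM plus 5, among genes with at least 10 UMIs over both libraries. In microglia 0 of 7 genes were higher and 2 lower under anti-PD-1 (Ccr2 and Cxcl2), where 1.10% of all genes were higher and 1.88% lower. In border macrophages 0 of 8 were higher and 1 lower (Cxcl1), against 0.810% and 0.892% of all genes. In the other C1qa-positive cells 0 of 8 were higher and 4 lower (Ccr2, Ccl9, Cxcl1 and Cxcl2), against 1.94% and 2.0%.

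In cDC2 1 of 8 was higher (Ccl12) and 2 lower (Ccl9 and Cxcl2), against 0.958% and 0.931% of all genes. In monocytes, with few cells, 1 of 7 was higher (Ccl2) and 3 lower (Ccl7, Ccl9 and Cxcl2), against 5.67% and 6.20%. The Ccl7 of monocytes was 4 and 17 UMIs, and the 17 were in 1 cell. Over the 5 classes, 38 of 45 pairs of gene and class had enough UMIs, and 2 were higher and 12 lower. Over all 19 classes with 20 or more cells in both libraries, lymphoid and neural ones included, 108 pairs had enough UMIs. Of these, 26 were higher and 19 lower under anti-PD-1. The share of all genes past 2-fold was counted in the 5 classes only, so the wider count has none beside it. Some of its higher pairs rest on 1 cell, such as Cxcl2 in plasma cells (59 of 61 UMIs) and Ccl12 in NK cells (101 of 113). Cxcr2 had enough UMIs in none of the 5 classes. The median ratio of the genes was -1.0 in the other C1qa-positive cells, -0.66 in cDC2, -0.50 in monocytes, -0.31 in border macrophages and 0.05 in microglia, beside -0.03, -0.02, -0.05, -0.05 and -0.17 for all genes of the class.

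The chemokine message was unevenly spread within a class. Of the Ccl2 UMIs of border macrophages, 50% lay in 23 of 242 cells under anti-PD-1 and in 49 of 702 under anti-TIGIT. For Ccl7 the numbers were 12 and 26 cells, and for Cxcl2 10 and 33. Microglial Ccl2 had 50% of its UMIs in 73 of 1414 cells and in 9 of 420, and Ccl12 in 111 and 18. The 10% of microglia with most Ccl12 held 57.4% and 74.5% of it, and the highest cell had 256 and 139 UMIs. For Ccr2 the 10% of cells with most of it held 47.0% and 35.5% in cDC2 and 42.9% and 28.1% in monocytes, where it is abundant. In border macrophages, where it is rare, they held 94.6% and 87.8%.

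Several non-myeloid values came from a handful of cells. Under anti-PD-1, 50% of the 247 Ccl2 UMIs of CD8 T cells were in 2 cells, 50% of the 707 Ccl12 UMIs of plasma cells in 4 cells and 59 of the 61 Cxcl2 UMIs of plasma cells in 1 cell. In CD8 T cells 237 Cxcl2 UMIs lay in 9 cells, 142 of them in 1, and the 26 Cxcl2 UMIs of plasmacytoid dendritic cells were all in 1 cell. ILC2 had 44 and 7 Cxcl2 UMIs in 5 of 83 and 2 of 52 cells. Doublets of such cells with a macrophage were not tested for beyond the doublet caller.

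**Figure D4:**
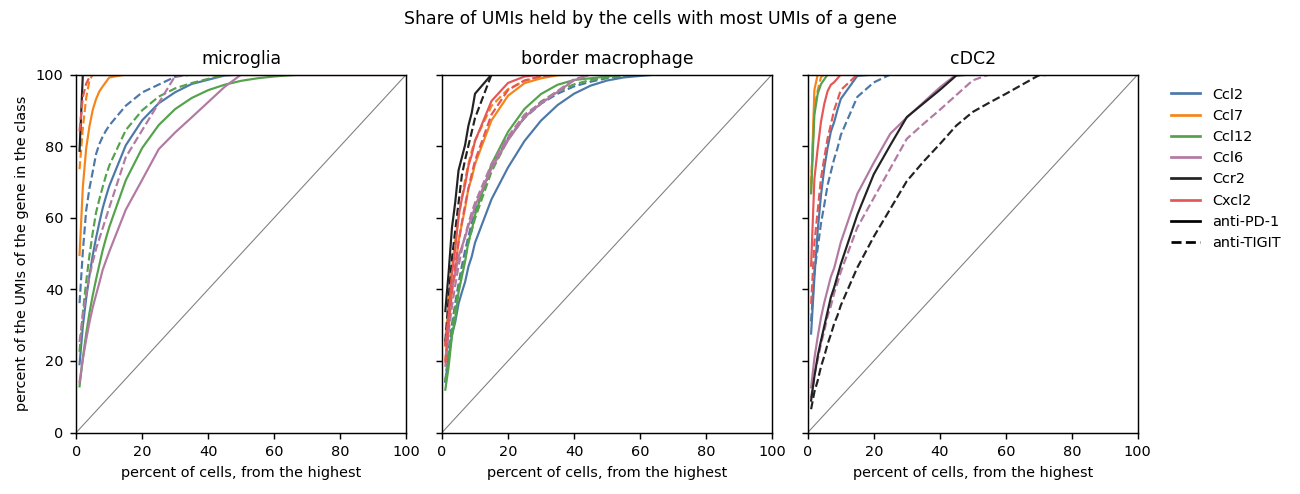
Percent of a gene's UMIs (vertical axis) held by the percent of cells with most of it (horizontal axis) in microglia, border macrophages and cDC2, with solid lines for anti-PD-1 and dashed for anti-TIGIT. Lines far above the diagonal mean that few cells hold most UMIs; Ccl12 in microglia reaches 57.4% and 74.5% at the first 10% of cells.

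The ligands of Ccr2 tended to occur in the same cells. In border macrophages thinned to 1000 UMIs, Ccl7 was found in 45.2% of cells with Ccl2 and 9.62% of cells without it under anti-PD-1, and in 44.2% and 9.14% under anti-TIGIT. Ccl12 was found in 53.9% against 33.7%, and in 53.2% against 35.2%. In microglia the figures for Ccl7 were 11.0% against 2.56% and 12.9% against 0.929%, and for Ccl12 63.9% against 41.7% and 54.8% against 24.1%. Each of these shares was higher in cells with Ccl2, in both libraries.

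The CXC ligands followed the same pattern in border macrophages. Cxcl2 was found in 31.3% of cells with Ccl2 and 11.5% without it, and in 33.9% and 21.6% under anti-TIGIT. Of the 12 and 40 border macrophages with a Cxcl1 UMI, 66.7% and 82.5% also had Cxcl2, against 19.3% and 23.6% of the rest. Ccl9 was found in 16.3% of border macrophages with Ccl6 and 2.84% without, and in 27.0% and 10.1% under anti-TIGIT. In microglia the same pair gave 5.47% against 4.85% and 1.96% against 5.69%, so that the order was not the same in the libraries.

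**Figure D5:**
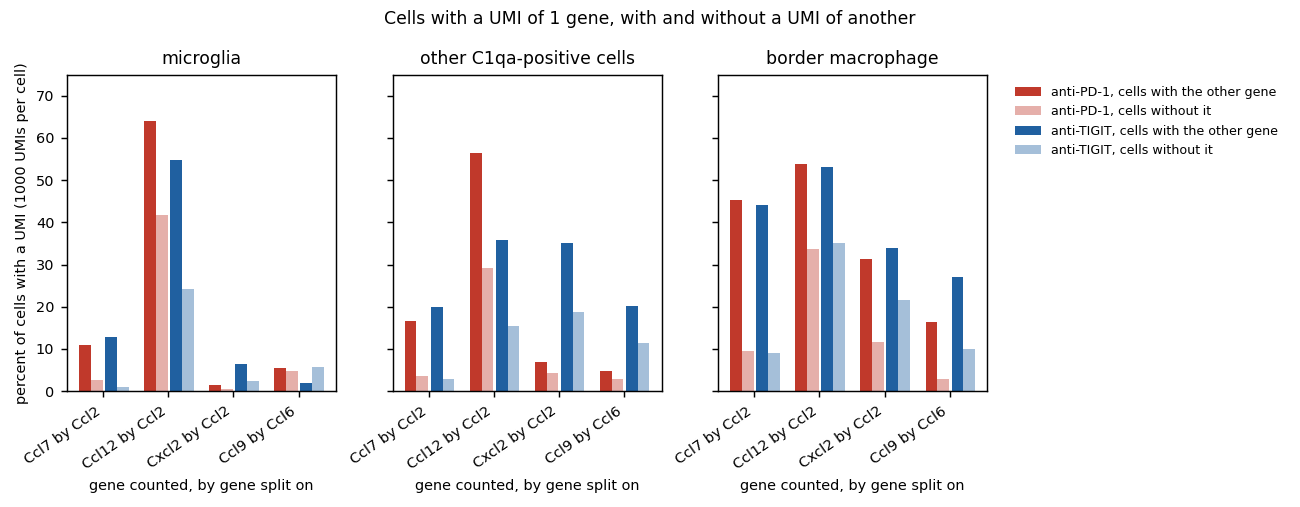
Percent of cells with a UMI of the gene named first (vertical axis, cells thinned to 1000 UMIs), split by whether the cell has a UMI of the gene named after "by", in 3 myeloid classes; full colour is with and pale colour without. In border macrophages Ccl7 was found in 45.2% and 44.2% of cells with Ccl2 against 9.62% and 9.14% without.

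Across the 19 classes that had 20 or more cells in both libraries, the genes whose levels ran most like each gene (Pearson r of log2 of CPM plus 5 over 38 points, which share the 2 libraries and their depth) were myeloid genes for most members. They were C3ar1 (0.94), Adgre1 (0.93) and Plxna4os1 (0.93) for Ccl2, and C1qa (0.93), C1qc (0.93) and C1qb (0.92) for Ccl12. For Ccl7 they were Gm17268 (0.92), Lilra5 (0.91) and Clec4a2 (0.89). For Ccl6 they were Lrrc25 (0.96), Igsf6 (0.95) and Ugt1a7c (0.94), for Ccl9 Ticam2 (0.93), Igsf6 (0.92) and Oas2 (0.90), and for Cxcl2 Ticam2 (0.83), Nlrp3 (0.82) and Siglece (0.80). Ccr2 ran with Pstpip1 (0.85), Lgals3 (0.83) and Sla (0.82). Among the members, Ccl6 and Ccl9 had r = 0.94, Ccl2 and Ccl7 0.90, Ccl2 and Ccl12 0.85, and Cxcl1 and Cxcl2 0.52.

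Other genes of the same pathways were listed beside the members. Of 15 other ligands for myeloid cells, Ccl5, which draws T cells and monocytes, and Ccl8, a chemokine of the same CC family, were past 2-fold higher under anti-PD-1 in microglia, border macrophages, cDC2 and the other C1qa-positive cells. Ccl5 was 2149 and 324 CPM in microglia and 347 and 48.6 CPM in border macrophages. Ccl8 was 718 and 231 CPM in border macrophages and 786 and 129 CPM in the other C1qa-positive cells. Ccl3 and Ccl4 were not past 2-fold in any of these classes. The direction of Ccl5 and Ccl8 is the opposite of that of Cxcl2 and Ccl9 in the same cells. It is not limited to myeloid cells. Oligodendrocytes, the reference for free RNA, also had Ccl5 and Ccl8 past 2-fold higher under anti-PD-1, with Ccl4. The part of free RNA in these differences was not tested.

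Of 10 other receptors and decoys, 5 had enough UMIs in microglia and 5 in border macrophages. Of these, Ccr1, the receptor of Ccl6 and Ccl9, was past 2-fold in microglia, at 26.2 and 69.0 CPM (log2 ratio -1.40), and 0 were in border macrophages, where Ccr1 was 175 and 205 CPM. Of 17 genes of induction and decay, Nfkbiz, an NF-kappaB cofactor induced by inflammatory signals, was past 2-fold lower under anti-PD-1 in microglia (332 and 693 CPM), cDC2 (455 and 976 CPM) and the other C1qa-positive cells (257 and 742 CPM), and stood at 445 and 894 CPM in border macrophages. Nfkbia, the NF-kappaB inhibitor that is itself a target, was 494 and 1065 CPM in the other C1qa-positive cells. Il1b was 836 and 361 CPM in microglia, higher under anti-PD-1.

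Genes of handling and stress also differed. The heat shock genes Hspa1a and Hspa1b were lower under anti-PD-1 in microglia (73.1 and 218 CPM, then 28.6 and 113 CPM), in cDC2 (66.6 and 197, then 19.9 and 86.6) and in the other C1qa-positive cells (138 and 406, then 63.5 and 213). In border macrophages Hspa1b was 64.6 and 137 CPM, while Fos, an immediate early gene that rises during dissociation, was 4921 and 4142 CPM. In monocytes neither heat shock gene was past 2-fold. Both were past 2-fold lower in cDC1, whereas Hspa1a was past 2-fold higher in precursor cells and fibroblasts. Oligodendrocytes had 6 of the 11 genes of this list past 2-fold higher under anti-PD-1 and 0 lower. The 6 were Fos, Junb, Egr1, Atf3, Ier2 and Dusp1. The share of all genes past 2-fold was not counted in oligodendrocytes, so this count has none beside it. The median ratio there was 1.04 for the 11 genes and 0.0007 for all 15850 genes with enough UMIs. The part of handling and stress in the lower Cxcl2, Ccl9 and Ccr2 of the anti-PD-1 library was not tested.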

How the data were processed

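The deposited values were raw UMI counts per gene and barcode, made by the authors with Cell Ranger 8.0.0 (anti-PD-1) and 8.0.1 (anti-TIGIT) per the file headers, on mm10 per the submitters' processing notes, which also name Seurat 5.0.3 and R 4.1.1. The libraries held 13997 and 7915 barcodes with 85031565 and 40733655 UMIs. Cells under 200 genes or over 10% mitochondrial UMIs were left out, and 576 and 155 doublets called by Scrublet (expected rate 0.8% per 1000 cells) were removed. Cells were gated by at least 3 markers of a class, and 781 and 171 cells with markers of different lineages were set aside. This placed 76.7% and 82.8% of kept cells, including the other C1qa-positive cells. UMIs were summed per class and library and scaled to CPM. The methods used exact Poisson intervals for CPM, exact binomial (Clopper-Pearson) intervals for shares, and exact conditional binomial intervals for log2 ratios of summed UMIs. UMIs are molecules only up to capture, so these intervals cover counting error only. A count of 0 was set to 3 UMIs for a ratio.

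Every one of the 9 genes was named. Other genes came from 4 lists and from the likeness rule (the 3 genes with highest r, without markers and members). The members and lists were chosen with earlier results of these data known. The alternatives were doublets kept, other cell filters, stricter or looser gates (4 or 2 markers), Leiden clusters made without the 9 genes, thinning, leaving out the cells highest for a gene, cells split by Xist and Y-linked genes, another scaling, and other pseudocounts and minimum counts. The other C1qa-positive class and the class II split were added after seeing the data. The scripts were tested on simulated data. The tools were scanpy 1.11.5, scipy 1.17.1, numpy 2.4.6, pandas 2.3.3, Python 3.11.15, igraph 0.11.9, leidenalg 0.10.2 and matplotlib 3.10.9.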

Additional observations from a re-analysis of the deposited data

Results flagged for a closer look

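In 2 cases cells split by sex-linked transcripts gave library ratios of opposite sign, each with a counting interval on its own side of 0, and the difference between the splits was not tested, since each library pools mice and gives 1 value per split. Cxcl2 in microglia had a log2 ratio (anti-PD-1 divided by anti-TIGIT) of -3.77 in Xist-positive cells (79 and 227 UMIs in 332 and 131 cells). It was 3.0 where Y-linked transcripts were found (102 and 2 UMIs in 404 and 113 cells). Few of these cells had any Cxcl2. Over all microglia, 3 cells held 50% of the 333 UMIs under anti-PD-1, and 1 cell 136 of the 272 under anti-TIGIT. Ccl6 in border macrophages had -0.58 in Xist-positive cells (157 and 370 UMIs in 94 and 180 cells) and 0.81 where Y-linked transcripts were found (109 and 206 UMIs in 41 and 179 cells). Both came from a look at 37 pairs of gene and class.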

How the results depend on the processing

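No paired analysis was possible because each treatment has 1 library. Of 406 log2 ratios recomputed under an alternative, 273 stayed within the counting interval of the reported value. The sign turned in 26, in 16 of them where the reported interval holds 0 and in 10 where it does not. The cause was not tested for any of them. The 10 were, in Leiden clusters, Ccl2 in microglia (-0.050), Ccl7 in microglia (-0.18), Ccl6 in cDC2 (0.062) and Ccl7 in the other C1qa-positive cells (0.42). After thinning they were Ccl2 in microglia (-0.089) and Ccl12 in monocytes (-0.19). In cells with Y-linked transcripts they were Cxcl2 in microglia (3.0) and Ccl6 in border macrophages (0.81), and in Xist-positive cells Ccr2 (0.19) and Cxcl2 (0.66) in monocytes, the last being a bound from 7 against 0 UMIs with the 0 set to 3.

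For the class with most UMIs of a gene, moved values were as follows, beside reported values near 0 for Ccl7 (-0.048) and Ccl6 (0.055), whose sign therefore turned in several. A looser gate gave Ccl2 0.033 and Ccl7 -0.19 in border macrophages and Ccl12 1.04 in microglia. A stricter gate gave Ccl12 1.12 in microglia and Cxcl2 -0.53 in border macrophages. Leiden clusters gave Ccl2 0.24, Ccl12 0.74, Ccr2 -0.22, Ccl6 -0.15, Ccl9 -0.77 and Cxcl2 -0.45. Xist-positive cells gave Ccl2 0.33, Ccl7 -0.20, Ccl12 1.30, Ccl6 -0.32 and Cxcl2 -1.52. Cells with Y-linked transcripts gave Ccl2 0.24, Ccl7 0.15, Ccl12 0.76, Ccl9 -1.77, Cxcl1 -2.47 and Cxcl2 -0.72. Thinning gave Ccl2 0.51, Ccl7 0.40, Ccl12 0.71, Ccr2 -0.67, Ccl9 -1.20, Cxcl1 -0.48 and Cxcl2 -0.65. Without the 1% of cells highest for the gene Ccl12 was 1.13 and Ccl6 0.25, and relative to the class median ratio they were 1.15 and 0.25.

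Genes past 2-fold, summed over the 5 classes, numbered 934 higher and 1085 lower. With a pseudocount of 1 they were 2189 and 2787, with 20 they were 355 and 298, with a minimum of 1 UMI 1900 and 1775, and with 200 UMIs 217 and 222. Members past 2-fold and lower fell from 12 to 7 with 200 UMIs. Depth limits Cxcl1 and Cxcr2 most.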
